A study of Mus musculus with 28 samples.

Results

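Endothelial cells line the blood vessels that grow into and around a developing tooth, and their genes give a readout of the vasculature in RNA from a whole tooth germ. The genes described here are 10 of the 52636 genes in a table of RNAseq counts from the first molar (labelled Molar 1) of mouse embryos, and the rule that selects them is a list of names. Of these, 8 are marker genes of endothelial cells (Pecam1, Kdr, Flt1, Tek, Tie1, Emcn, Esam, and Eng) and 2 encode growth factors that act on vessels (Vegfa and Vegfc). All 10 symbols were found in the table, and all 10 genes passed the filter on low counts.

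The study dissected wild type C57BL/6JOlaHsd embryos and made a library from each single tooth germ, leaving as little surrounding tissue as possible. The stage names E13, E14, and E16 follow the paper, and the labels of the same teeth read E13.5, E14.5, or E16.5. At E13 the molar is an epithelial bud, at E14 a cap, and by E16 it has taken on the shape of a bell. There were 7 teeth per stage, from 7 embryos at E13, 6 at E14, and 5 at E16, and no embryo was treated. A further 7 teeth have labels that read E15, with no fraction of a day. Of these, 6 were used here, from a separate table of estimated counts, and they are described without a test. Some teeth therefore share an embryo, and p values measure the spread between teeth.

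VEGF-A is secreted by many kinds of cells, above all when oxygen is short, and acts on endothelial cells through the receptor encoded by Kdr (VEGFR2), whereas Flt1 (VEGFR1) binds the ligand tightly and limits how much of it reaches Kdr. VEGF-C acts mainly through another receptor, encoded by Flt4, and is best known for the growth of lymphatic vessels. Tek (TIE2) is the receptor of the angiopoietins and Tie1 its partner. Pecam1 and Esam encode adhesion proteins at the junctions between endothelial cells, Emcn encodes a sialomucin of capillaries and veins, and Eng encodes endoglin, a co-receptor for ligands of the TGF-beta and BMP families. Kdr, Flt1, Tek, and Tie1 are restricted largely, though not wholly, to endothelial cells, and Pecam1 is also found on platelets and some leukocytes.

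Transcription factors of the ETS family bind many promoters of endothelial genes around the letters GGAA, and so the promoters of 4 members are shown that differ in how they changed between the stages. Eng and Emcn were the endothelial genes with the largest increases, Tie1 fell relative to Pecam1, and Vegfc had the largest decrease. Each sequence runs 5′ to 3′ in the direction of the gene, from 250 bases before to 50 bases after the start of transcription annotated by RefSeq on GRCm38.p6, and capitals mark the letters AGGAAG or CGGAAG on either strand.

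Eng, chr2:32646345-32646644, plus strand: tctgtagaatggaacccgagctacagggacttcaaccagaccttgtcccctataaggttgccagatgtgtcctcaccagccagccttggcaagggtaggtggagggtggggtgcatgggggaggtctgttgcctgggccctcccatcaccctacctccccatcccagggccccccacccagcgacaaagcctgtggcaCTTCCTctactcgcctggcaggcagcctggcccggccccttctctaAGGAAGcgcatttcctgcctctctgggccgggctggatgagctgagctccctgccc
Emcn, chr3:137340828-137341127, plus strand: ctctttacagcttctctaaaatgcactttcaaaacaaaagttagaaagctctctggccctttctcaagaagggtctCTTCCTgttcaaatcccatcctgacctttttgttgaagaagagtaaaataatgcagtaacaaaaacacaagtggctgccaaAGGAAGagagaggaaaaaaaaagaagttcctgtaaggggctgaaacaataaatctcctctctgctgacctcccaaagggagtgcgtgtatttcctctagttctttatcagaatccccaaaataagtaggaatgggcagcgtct
Tie1, chr4:118489800-118490099, minus strand: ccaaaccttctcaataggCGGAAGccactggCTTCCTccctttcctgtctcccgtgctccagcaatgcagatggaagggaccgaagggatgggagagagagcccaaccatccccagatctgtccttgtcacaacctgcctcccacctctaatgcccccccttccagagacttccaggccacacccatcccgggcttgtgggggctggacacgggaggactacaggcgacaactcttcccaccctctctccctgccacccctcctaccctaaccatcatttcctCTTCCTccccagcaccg
Vegfc, chr8:54077282-54077581, plus strand: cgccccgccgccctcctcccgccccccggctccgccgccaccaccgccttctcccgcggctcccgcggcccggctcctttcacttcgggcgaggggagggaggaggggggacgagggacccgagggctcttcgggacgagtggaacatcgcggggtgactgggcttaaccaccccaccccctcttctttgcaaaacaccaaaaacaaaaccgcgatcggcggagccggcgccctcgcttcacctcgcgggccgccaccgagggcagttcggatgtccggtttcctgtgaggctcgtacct

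In Eng the marked letters stand 52 and 6 bases before the start, in Emcn 174 and 93 bases before it, and in Tie1 232 and 219 bases before and 34 bases after it. The Vegfc window has none of the marked letters. The shorter letters GGAA, on 1 strand or the other, also occur unmarked in each window shown, that of Vegfc included. RefSeq promoters were matched for Emcn, Eng, Flt1, Kdr, Tek, Tie1, Vegfa (2 starts), and Vegfc. Of these 9 windows 4 hold the marked letters, and of all 32851 promoters of the same length 46.5% do, a share near that of the members. The hypoxia response core ACGTG was in 1 of the 9 windows, at the downstream start of Vegfa, and in 19.6% of all promoters, and the letters AGATAA, a core bound by GATA factors, were in 2 of the 9, at the upstream start of Vegfa and in Tek, and in 11.2% of all.

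The libraries held between 17814073 and 27115729 counts on genes, and the members had between 115 and 3442 counts in a library, and the common variation between teeth was 21.2% in the edgeR fit, with counting error taken out. Markers of dental epithelium (Krt14, Krt5, and others) and of dental mesenchyme (Msx1, Pax9, and others) were present in every tooth, with lowest summed levels of 391.1 and 808.6 CPM (counts scaled to library size with TMM). The sum of 4 skeletal muscle markers reached 108 CPM in the E13 tooth of embryo 7, against at most 10.2 CPM in any tooth of E14 and E16, and the part of surrounding tissue in the results was not tested. In these bulk samples, fewer endothelial cells and less RNA of a gene per endothelial cell cannot be told apart.

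One library, from the left molar of embryo 3 at E16, stood apart. It had the lowest total (17814073 counts), the highest TMM factor (1.19, against 0.85 to 1.04 in the other 20 teeth), and the highest shares of small nuclear RNA (0.237% of counts, against 0.0102% to 0.0405%) and mitochondrial ribosomal RNA (1.66%, against 0.128% to 1.16%). Its endothelial members summed to 193.6 CPM, whereas the other E16 teeth had between 390.3 and 444.0 CPM. Summed levels of mural cell (399 CPM), macrophage (68.9 CPM), dental epithelium (1034 CPM), and dental mesenchyme markers (809 CPM) were also the lowest of the E16 teeth in this library. Its summed cartilage markers, at E16 mostly Sox9 (mean 141.1 CPM, beside 17.8 CPM of Col2a1), were 34.3 CPM against a median of 189 CPM. The tests of the members are therefore given with this tooth, and where a call or a count of calls changes, also without it. Another E16 library, from the right tooth of embryo 7, had the lowest TMM factor (0.85). It also had the lowest share of counts on protein-coding genes, 74.1%, against 80.4% to 91.2% in the other teeth. The endothelial members of that tooth summed to 414.2 CPM.

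**Figure D1:**
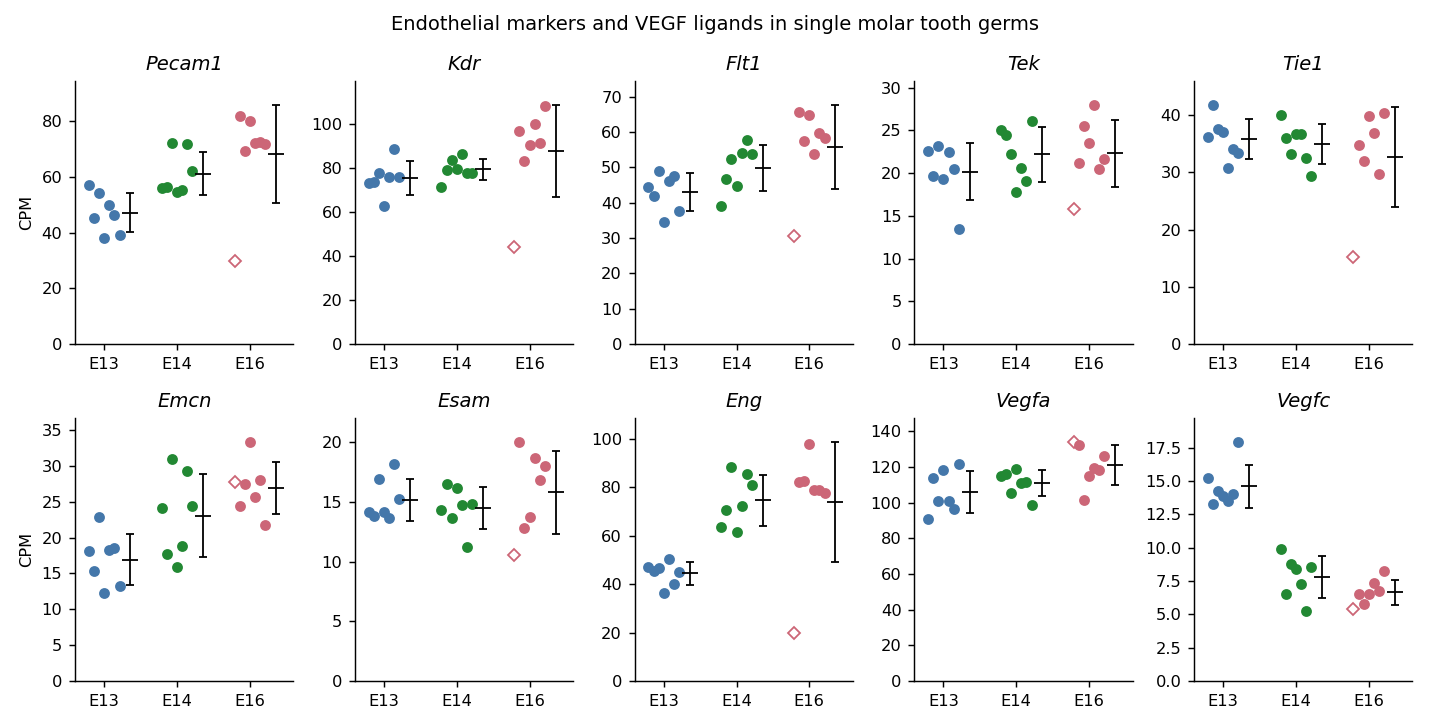
Levels of the 10 members in CPM (TMM-normalized) in single teeth of E13, E14, and E16, with 7 teeth per stage, and the mean with SD in black beside the points. The open diamond is the left tooth of embryo 3 at E16, which is the lowest E16 tooth for 7 of the 8 endothelial genes and the highest for Vegfa. All 7 E14 teeth lie above all 7 E13 teeth for Eng and below them for Vegfc.

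Levels of different genes were compared per exon length, as TPM, the length-scaled transcript level summed to a fixed total over protein-coding genes. The length was that of all annotated exons of a gene joined, from 2449 bases in Vegfc to 13504 in Flt1. The order of the genes with other lengths was not tested. At E13, Vegfa had the highest level, 140.2 ± 15.9 TPM (SD, n = 7), with no overlap with Eng, the next in order (62.1 ± 5.96 TPM). Kdr (47.3 ± 5.23), Pecam1 (42.9 ± 6.38), and Tie1 (41.3 ± 4.24 TPM) followed with overlapping ranges. Vegfc (33.8 ± 3.74), Esam (30.0 ± 3.99), Tek (24.2 ± 4.04), Flt1 (18.1 ± 2.35), and Emcn (17.8 ± 3.95 TPM) came last, each overlapping the next. The median over 21896 protein-coding genes was 8.88 TPM, so that each member was expressed above the typical gene.

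The order shifted in a few places at the later stages. At E14 Vegfa (132.5 ± 16.53 TPM) and Eng (93.5 ± 8.36 TPM) led, and Eng no longer overlapped the third gene, Pecam1 (49.8 ± 3.91 TPM). Vegfc moved from the sixth place at E13 to the last at E14 (16.3 ± 3.76 TPM) and stayed there at E16 (14.3 ± 2.67 TPM). Emcn rose from the last place at E13 to the eighth at E14 (21.5 ± 4.37 TPM) and the seventh at E16 (26.1 ± 3.61 TPM). Neighbours in the order from Pecam1 downwards overlapped at both stages. At E16 Vegfa was above Eng in all 7 teeth, although their ranges overlapped, 108.5 to 198.2 TPM against 31.2 to 114.7 TPM.

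From E13 to E14, the bud to cap transition, Eng and Emcn rose and Vegfc fell, and the other 7 members did not pass the test. Of all 19101 genes tested with the quasi-likelihood test of edgeR, 11.3% were called higher and 8.47% lower at an adjusted p below 0.05, and the members' counts are 2 of 10 and 1 of 10. Without the left tooth of embryo 3 at E16, which contributes to the estimate of the spread in this fit, 16.7% and 13.8% of genes were called, and Pecam1 was called as well. The median log2 fold change of the 8 endothelial members was 0.17, against -0.01 for all genes.

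Eng, the co-receptor endoglin, had 36.5, 45.2, and 50.3 CPM at E13 (lowest, median, and highest tooth) and 61.8, 72.1, and 88.6 CPM at E14. Every E14 tooth was above every E13 tooth. The log2 fold change was 0.75 (SE 0.20, adjusted p = 0.00796, edgeR), or 1.68-fold between the means. The exons of Eng overlap those of Fpgs, an enzyme of folate metabolism encoded on the opposite strand, and the strand setting of the counting is not given in the sources used here. Fpgs itself had 21.4 ± 3.36 CPM at E13 and 18.6 ± 3.50 CPM at E14, a log2 fold change of -0.20 in the other direction (adjusted p = 0.314, edgeR).

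Emcn, the sialomucin of capillaries and veins, had 12.3, 18.1, and 22.8 CPM at E13 and 15.9, 24.2, and 31.0 CPM at E14. The ranges overlapped, with 4 E14 teeth above all E13 teeth, and the log2 fold change was 0.44 (SE 0.15, adjusted p = 0.0354, edgeR). This call was lost when any of 7 teeth was left out, namely the E13 teeth of embryos 2 and 5 and the one with no embryo number, and the E14 teeth of embryos 1, 3, and 8 and the left one of embryo 6 (adjusted p from 0.0559 to 0.0934). Pecam1, the junction protein, had 38.1, 46.4, and 57.1 CPM at E13 and 54.5, 56.5, and 72.3 CPM at E14. Of the E13 teeth 6 were below all E14 teeth, but the log2 fold change of 0.37 (SE 0.15) did not pass the test (adjusted p = 0.0825, edgeR). With the left tooth of embryo 3 at E16 left out, the same difference had an SE of 0.09 and an adjusted p of 0.00225.

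The receptors of VEGF and the angiopoietins had small differences between E13 and E14, and none passed the test. Kdr had 62.8, 75.8, and 88.6 CPM at E13 and 71.6, 79.0, and 86.3 CPM at E14, so that the E14 range lay within the E13 range (log2 fold change 0.08, SE 0.12, adjusted p = 0.723, edgeR). Flt1 had 34.6, 44.5, and 48.9 CPM at E13 and 39.0, 52.4, and 57.7 CPM at E14 (0.21, SE 0.13, adjusted p = 0.264, edgeR). For Tek and Tie1, the log2 fold changes were 0.14 (SE 0.12) and -0.04 (SE 0.14), and for the junction gene Esam -0.06 (SE 0.12). A difference that misses the threshold does not show that the levels were equal.

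The ligands went different ways. Vegfc had 13.3, 14.1, and 18.0 CPM at E13 and 5.22, 8.39, and 9.87 CPM at E14, so that every E13 tooth was above every E14 tooth. The log2 fold change was -0.91 (SE 0.12, adjusted p = 9.31e-06, edgeR), and the E14 mean was 0.533 of the E13 mean. Vegfa, in contrast, had 90.6, 101.0, and 121.5 CPM at E13 and 98.5, 111.5, and 119.1 CPM at E14 (log2 fold change 0.07, SE 0.08, adjusted p = 0.592, edgeR).

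From E14 to E16, none of the 10 members passed the test in the 21 teeth, and none had an unadjusted p below 0.05 in edgeR or was called by DESeq2. Of all genes, 15% were called higher and 13.1% lower. Here the left tooth of embryo 3 decided the count, since without it 3 of the 10 members rose, among 18.5% of genes called higher and 15.8% lower. These were Kdr (log2 fold change 0.27, SE 0.07, adjusted p = 0.00228, edgeR), Pecam1 (0.30, SE 0.09, adjusted p = 0.0113), and Flt1 (0.28, SE 0.09, adjusted p = 0.0142). With the tooth, the same genes had log2 fold changes of 0.14, 0.16, and 0.16.

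The values of single teeth show the difference. Kdr, the main signaling receptor of VEGF, had 43.9 CPM in the left tooth of embryo 3 and between 83.3 and 108.2 CPM in the other 6 E16 teeth, 5 of which were above all E14 teeth. Pecam1 had 29.8 CPM in that tooth and between 69.1 and 81.8 CPM in the others, against an E14 range of 54.5 to 72.3 CPM. Flt1 had 30.6 CPM in that tooth and between 53.7 and 65.7 CPM in the others, 4 of which were above all E14 teeth.

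For Eng the E16 level was close to that of E14. The 6 other E16 teeth had between 77.9 and 97.9 CPM, and the left tooth of embryo 3 had 19.9 CPM, or 24.0% of their mean. The log2 fold change was -0.01 with this tooth (SE 0.19, adjusted p = 0.972, edgeR) and 0.17 without it (SE 0.09, adjusted p = 0.140). Emcn went from a median of 24.2 CPM to one of 27.4 CPM (0.22, SE 0.15, adjusted p = 0.274, edgeR), and here the tooth of embryo 3 had 27.8 CPM, 103.8% of the mean of the others. The low values in this library thus did not extend to all endothelial genes in equal measure.

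Tek had 15.8, 21.7, and 28.0 CPM at E16, Tie1 15.2, 34.9, and 40.4 CPM, and Esam 10.6, 16.9, and 20.1 CPM, and the lowest value of each was that of the left tooth of embryo 3. Their medians at E14 were 22.2, 35.97, and 14.8 CPM. The differences from E14 did not pass the test with or without that tooth (log2 fold changes of 0.01, -0.10, and 0.13 with it, and 0.09, 0.04, and 0.22 without it). For the ligands, Vegfa had 101.3, 119.6, and 134.2 CPM at E16 (0.12, SE 0.08, adjusted p = 0.233, edgeR) and Vegfc 5.42, 6.51, and 8.22 CPM (-0.23, SE 0.13, adjusted p = 0.188), and neither passed.

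**Figure D2:**
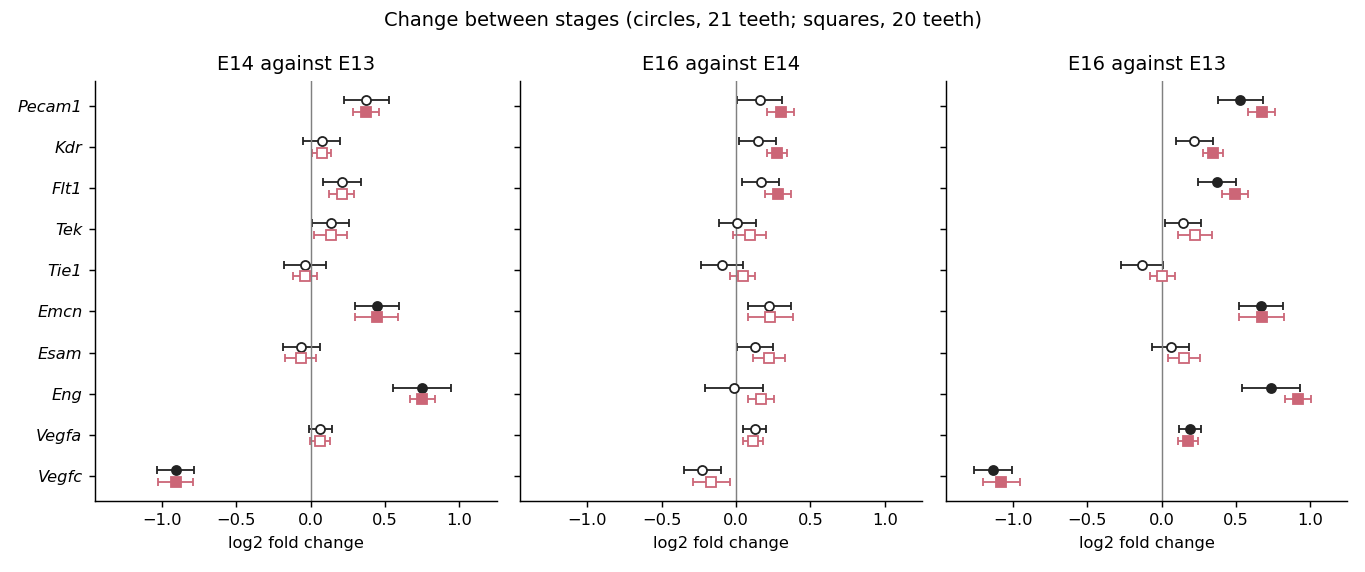
Log2 fold change of each member between stages with its SE from edgeR, with all 21 teeth (black circles) and without the left tooth of embryo 3 at E16 (red squares). Filled symbols have an adjusted p below 0.05. Vegfc lies at -0.91 and -1.13 in the comparisons with E13, and Kdr, Pecam1, and Flt1 are filled between E14 and E16 only as squares.

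Over the whole interval from E13 to E16, 5 of the 10 members rose (Eng, Emcn, Pecam1, Flt1, and Vegfa) and Vegfc fell. Of all genes, 21.6% were called higher and 19.6% lower, and without the left tooth of embryo 3 at E16 25.5% and 23.1%. The median of the 8 endothelial members was 0.30 on the log2 scale, and -0.01 for all genes. The sum over the 8 endothelial members was 298.2 ± 25.8 CPM at E13 (SD, n = 7), 359.8 ± 25.8 CPM at E14, and 383.6 ± 85.6 CPM at E16, and its medians were 307.2, 358.8, and 414.2 CPM.

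Eng rose by 0.74 on the log2 scale (SE 0.20, adjusted p = 0.00371, edgeR), or 0.92 without the left tooth of embryo 3 (SE 0.09, adjusted p = 2.84e-09). Fpgs, on the opposite strand, fell by 0.55 (adjusted p = 0.00193, edgeR). Emcn rose by 0.67 (SE 0.15, adjusted p = 0.000746), and 6 of the 7 E16 teeth were above all E13 teeth. Pecam1 rose by 0.53 (SE 0.15, adjusted p = 0.00622), and its E16 teeth were above all E13 teeth except for the left tooth of embryo 3, which was below all of them. The same split of 6 and 1 was found in Flt1, which rose by 0.37 (SE 0.13, adjusted p = 0.0204, edgeR) and lost the call without the E13 tooth of embryo 5 (adjusted p = 0.0510) and with the teeth of an embryo summed (adjusted p = 0.0654).

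Kdr had a log2 fold change of 0.22 (SE 0.12, adjusted p = 0.164, edgeR), and without the left tooth of embryo 3 it rose by 0.35 (SE 0.07, adjusted p = 0.000126). Tie1 had a log2 fold change of -0.13 with this tooth and 0.004 without it, and its mean levels were 35.9 ± 3.53, 34.9 ± 3.48, and 32.7 ± 8.66 CPM at E13, E14, and E16 (SD, n = 7). Tek and Esam had 0.14 (SE 0.12) and 0.06 (SE 0.12). None of these 3 genes passed the test with or without the tooth.

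Vegfa rose by 0.19 on the log2 scale between E13 and E16 (SE 0.08, adjusted p = 0.0464, edgeR), a 1.14-fold difference between the means, 106.1 ± 11.8 and 121.0 ± 11.3 CPM (SD, n = 7). The ranges overlapped, with 3 E16 teeth above all E13 teeth. This call was near the threshold, and it was lost when any of 7 teeth was left out, namely the E13 teeth of embryos 1, 3, 7, and 9 and the E16 teeth of embryo 7 and the left ones of embryos 5 and 8 (adjusted p from 0.0501 to 0.0821). It was also lost under 4 of the 10 other settings. The call remained without the left tooth of embryo 3 (0.18, SE 0.07, adjusted p = 0.0350, edgeR). Vegfc fell by 1.13 on the log2 scale (SE 0.13, adjusted p = 7.17e-08, edgeR), with every E13 tooth above every E16 tooth, and its mean at E16 was 0.456 of that at E13.

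A separately deposited table of counts estimated with salmon also covers 6 teeth of E15, and it lists 9 of the 10 members (not Pecam1). The E15 teeth were deposited separately from the E13 and E16 teeth, so that stage and deposit cannot be told apart. The E15 values therefore have no test here, and the levels are scaled within that table. At E15 the mean level of 7 of the 9 genes was between those of E13 and E16, and of 6 when the left tooth of embryo 3 was left out of the E16 mean. Eng had 51.8, 63.5, and 83.7 CPM at E13, E15, and E16, and Emcn 20.02, 26.5, and 31.2 CPM. Vegfc was already low at E15, with 14.96, 7.43, and 7.01 CPM. Kdr was above both other stages (88.5, 100.3, and 97.8 CPM) and Esam below both (17.3, 15.6, and 17.7 CPM). The order of Kdr rests on the left tooth of embryo 3, since without it the E16 mean was 105.6 CPM and the E15 mean was between the others. Without this tooth the E15 mean of Tie1 was below both (42.1, 37.0, and 39.6 CPM) and that of Vegfa above both (123.2, 135.5, and 132.7 CPM), whereas both had been between with it.

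To compare the members with each other within a tooth, the count of each was also set against that of Pecam1, as the log2 of the ratio with 0.5 counts added. The stage means of these ratios were compared by a two-sided exact permutation test that enumerates every split of the teeth, and the 27 p values were adjusted together. The smallest p this test can give is 0.000583.

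Between E13 and E14 the ratio of Eng to Pecam1 rose from -0.08 ± 0.16 to 0.29 ± 0.09 (SD, n = 7, exact permutation test, adjusted p = 0.0118), a difference of 0.37. The ratio of Vegfc fell by 1.30 (exact permutation test, adjusted p = 0.00525). Those of Kdr (-0.30, adjusted p = 0.0594), Esam (-0.44, adjusted p = 0.0594), and Tie1 (-0.42, adjusted p = 0.0614) were lower at E14 without passing the threshold in these exact tests, and that of Emcn differed by 0.05 (adjusted p = 0.733). Between E14 and E16 no ratio passed, and the only unadjusted p below 0.05 was that of Eng (-0.24, p = 0.0157, adjusted p = 0.0594, exact permutation test).

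Between E13 and E16 the ratio of Tie1 to Pecam1 fell by 0.67, from -0.39 ± 0.26 to -1.06 ± 0.16 (SD, n = 7, exact permutation test, adjusted p = 0.00525), and that of Vegfc by 1.62 (adjusted p = 0.00525). Without the left tooth of embryo 3 at E16, 8 of the 9 ratios passed, and the exact test then had 1716 splits. Tie1 (-0.68), Esam (-0.54), Tek (-0.45), Kdr (-0.34), and Flt1 (-0.19) were lower relative to Pecam1, as were Vegfa (-0.50) and Vegfc (-1.76), and Eng was higher (0.23, adjusted p = 0.0407, exact permutation test). Emcn differed by 0.004 (adjusted p = 0.973). All 9 ratios share Pecam1 as the denominator, and its own level rose by 0.67 on the log2 scale without that tooth. Kdr (0.35), Flt1 (0.49), and Vegfa (0.18) were also called higher in that edgeR fit, and Tie1 had 0.004. A lower ratio here is thus not by itself a lower level of the gene. Of the genes with a lower ratio, only Vegfc was also called lower in that fit (-1.08, adjusted p = 8.66e-08, edgeR). Between E13 and E14, where that tooth does not enter the values, its absence from the family of 27 tests brought the adjusted p of Kdr and Esam to 0.0407 and that of Tie1 to 0.0472, so that 5 ratios passed.

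**Figure D3:**
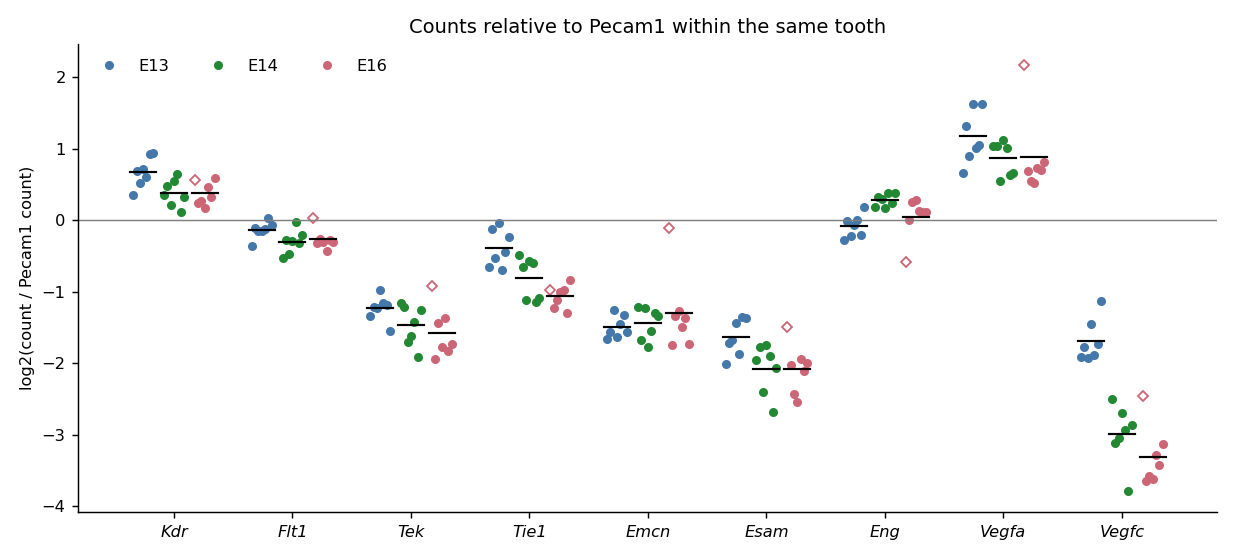
Log2 ratio of the count of each gene to that of Pecam1 in the same tooth at E13 (blue), E14 (green), and E16 (red), with a line at each stage mean and an open diamond for the left E16 tooth of embryo 3. The ratio of Tie1 declines from a mean of -0.39 to -1.06 and that of Vegfc from -1.68 to -3.30, whereas the means of Flt1 lie between -0.13 and -0.30. Pecam1, the denominator of every ratio, was itself higher at E16 than at E13.

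The other genes of VEGF, angiopoietin, and apelin signaling were a list of 13, most of which were not called in any comparison of the 21 teeth. Between E13 and E14, 0 of the 13 were higher and 1 lower, between E14 and E16, 1 higher and 2 lower, and between E13 and E16, 3 higher and 2 lower, with a median log2 fold change of 0.04. The last counts are shares near those of all genes (21.6% and 19.6%), which were 11.3% and 8.47%, and 15% and 13.1%, in the earlier comparisons. Without the left tooth of embryo 3 the counts were 3 higher and 1 lower, 2 and 2, and 5 and 3. The shares of all genes were then 16.7% and 13.8%, 18.5% and 15.8%, and 25.5% and 23.1%. Angpt2, the angiopoietin that destabilizes vessels where they sprout, had 1.48 ± 0.51, 1.82 ± 0.76, and 7.17 ± 2.86 CPM at the 3 stages (SD, n = 7), and rose by 2.28 on the log2 scale from E13 to E16 (SE 0.29, adjusted p = 6.99e-07, edgeR). Esm1, a gene of tip cells, rose by 1.19 over the same interval from a low level (0.780 ± 0.325 CPM at E13, adjusted p = 0.0138), and Dll4, the Notch ligand of tip cells and arteries, by 0.44 (adjusted p = 0.0326, edgeR).

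In the same list, Nrp1, a co-receptor for VEGF that is also found on nerve and mesenchymal cells, fell from 91.0 ± 8.14 CPM at E13 to 75.6 ± 3.95 at E14 and 60.2 ± 5.43 at E16 (SD, n = 7, log2 fold change from E13 to E16 -0.60, SE 0.07, adjusted p = 1.54e-07, edgeR). Pgf, a ligand of Flt1, had 13.02 ± 1.48, 13.1 ± 2.15, and 6.79 ± 1.32 CPM and fell by 0.94 between E13 and E16 (adjusted p = 2.29e-06). Flt4, the receptor of VEGF-C, had 26.1 ± 2.08, 30.8 ± 4.38, and 28.3 ± 8.80 CPM. It was not called in the 21 teeth, and without the left tooth of embryo 3 at E16 it was called higher at E14 and E16 than at E13 (log2 fold changes of 0.24, adjusted p = 0.0392, and 0.28, adjusted p = 0.0128, edgeR). Angpt1, the ligand that activates Tek, had 87.6 ± 9.64, 73.4 ± 19.1, and 70.0 ± 15.3 CPM and was not called in the 21 teeth. Without the same tooth it was lower at E16 than at E13 (log2 fold change -0.43, SE 0.12, adjusted p = 0.00392, edgeR).

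A second list held 22 other endothelial genes, of which 17, 19, and 13 were not called in the comparisons of E14 with E13, E16 with E14, and E16 with E13. Of the 22, 4 were higher and 1 lower between E13 and E14, 3 and 0 between E14 and E16, and 8 and 1 between E13 and E16, with medians of 0.32, 0.05, and 0.37 on the log2 scale. The shares of all genes called higher and lower were 11.3% and 8.47%, 15% and 13.1%, and 21.6% and 19.6%. Without the left tooth of embryo 3 the counts were 12 and 2, 6 and 0, and 13 and 1. All genes then had shares of 16.7% and 13.8%, 18.5% and 15.8%, and 25.5% and 23.1%. From E13 to E16, Adgrl4, an adhesion receptor of growing vessels, rose by 1.06 (SE 0.15, adjusted p = 3.18e-06, edgeR), S1pr1, the receptor of sphingosine-1-phosphate, by 1.01, and Myct1 by 0.93. Tal1, a transcription factor of blood and endothelial cells, fell by 0.71 (adjusted p = 0.00214), and Vwf was lower at E14 than at E13 by 0.84 (adjusted p = 0.0143, edgeR) but had 12.2 ± 2.86 CPM at E13 and 11.4 ± 4.52 CPM at E16.

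Of 5 arterial genes tested, 2 were higher at E16 than at E13, Unc5b by 1.21 (adjusted p = 8.14e-07, edgeR) and Efnb2, the ephrin of arteries, by 0.41 (adjusted p = 0.000503), while Hey1 was lower at E16 than at E14 by 0.67 (adjusted p = 0.00129). Among all genes, 21.6% were called higher between E13 and E16, and 13.1% lower between E14 and E16. Efnb2 and Unc5b were also higher at E16 than at E14 without the left tooth of embryo 3 (log2 fold changes of 0.19 and 0.39). Between E13 and E14, 2 of the 5 were higher and 0 lower. Without that tooth 3 were higher and 0 lower, Hey1 among the higher (log2 fold change 0.38, adjusted p = 0.00247, edgeR). Of all genes 11.3% were called higher between E13 and E14, or 16.7% without that tooth. Efnb2 and Unc5b are also expressed outside vessels. Of the lymphatic genes, Lyve1 rose by 3.69 between E13 and E16 (SE 0.43, adjusted p = 1.65e-07, edgeR), from 0.464 ± 0.422 to 6.06 ± 2.33 CPM (SD, n = 7), whereas Prox1 was not called in the 21 teeth and Mmrn1 did not exceed 0.123 CPM in any tooth. Without the left tooth of embryo 3, Prox1 was called higher at E16 than at E14 as well. Lyve1 is also a gene of tissue macrophages, and all 9 macrophage markers rose over the same interval (median log2 fold change 1.21), with summed levels of 38.6 to 63.6 CPM at E13 and 68.9 to 147.2 CPM at E16. The part of macrophages in the Lyve1 result was not tested.

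Mural cells, the pericytes and smooth muscle cells that wrap vessels, were followed with 9 markers, of which 5 were higher and 1 lower at E16 than at E13, or 5 and 2 without the left tooth of embryo 3, where Pdgfrb was also lower (log2 fold change -0.17, adjusted p = 0.0267, edgeR). The shares of all genes were 21.6% and 19.6%, or 25.5% and 23.1% without that tooth. Kcnj8 and Abcc9, the subunits of a potassium channel of pericytes, rose by 3.25 (SE 0.22, adjusted p = 1.32e-11, edgeR) and 2.07 (SE 0.14, adjusted p = 2.31e-11), and Tagln, a gene of smooth muscle, by 1.32. Kcnj8 went from 3.27 ± 1.11 CPM at E13 to 9.71 ± 0.86 at E14 and 31.2 ± 8.59 at E16 (SD, n = 7). Des, which is also a muscle gene, fell by 1.63 (adjusted p = 0.00744), beside skeletal muscle markers of which 3 of 4 fell, and Pdgfrb, also a gene of mesenchyme, was lower at E16 than at E14 by 0.70 (adjusted p = 0.000981, edgeR). The summed level of the list was 578.6 to 703.5 CPM at E13 and 399.4 to 771.0 CPM at E16.

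The content of the vessels was followed with markers of blood cells. Of 8 red cell genes tested, 2 were higher and 2 lower at E16 than at E13, with Hbb-bs, an adult globin, higher by 3.24 (adjusted p = 0.000291, edgeR) and the embryonic globins Hbb-y and Hba-x lower by log2 fold changes of -7.30 and -3.98. The shares of all genes were 21.6% higher and 19.6% lower. For Hbb-bs, the E16 tooth of embryo 7 had 46.97 CPM and the other 6 between 1.88 and 5.88 CPM, against 1.00 ± 0.62 CPM at E13 (SD, n = 7), and without that tooth the log2 fold change was 1.81 (SE 0.39, adjusted p = 0.000655, edgeR). The summed level of the list went from 239.1 to 444.4 CPM at E13 to 39.3 to 115.9 CPM at E16. Of 3 platelet genes tested, Pf4, which macrophages also express, was higher by 1.98 and Ppbp lower (-2.53, adjusted p = 0.00209, edgeR), and their sums were between 4.28 and 16.8 CPM in all teeth. Of 3 cartilage genes, Acan and Sox9 rose and Col2a1 fell (-3.11, adjusted p = 1.21e-11, edgeR). The part of blood cells in the Pecam1 values was not tested.

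Vegfa is induced by hypoxia, and 13 other genes with that property were listed beside it. Of these, 3 were higher and 1 lower between E13 and E14, 7 and 0 between E14 and E16, and 10 and 0 between E13 and E16, with a median log2 fold change of 0.56 over the last interval. The shares of all genes called higher and lower were 11.3% and 8.47%, 15% and 13.1%, and 21.6% and 19.6%. Over the last interval 11 were higher and 0 lower without the left tooth of embryo 3, with a median of 0.68, beside 25.5% and 23.1% of all genes. Ndrg1 rose by 2.34 (SE 0.14, adjusted p = 9.63e-13, edgeR), from 12.0 ± 2.17 to 60.7 ± 11.8 CPM, Bnip3, a mitophagy receptor, by 0.91, and Pdk1, a kinase that holds back pyruvate oxidation, by 0.78. Ankrd37 was lower at E14 than at E13 by 0.91 (adjusted p = 0.000651). The difference of Vegfa, 0.19, was below the median of this list. Many of these genes are expressed in epithelium or respond to other signals, and all 4 dental epithelium markers rose (median 1.36 between E13 and E16) while 4 of 5 mesenchyme markers fell (median -0.80). The part of tissue composition in these differences was not tested.

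Among the teeth of a stage, the endothelial members varied by between 5.88% (Kdr at E14) and 33.5% (Eng at E16) as a coefficient of variation, and the E16 values include the left tooth of embryo 3. Emcn was the most variable at E13 and E14 (21.3% and 25.2%), and Vegfa had 11.1%, 6.33%, and 9.34% at the 3 stages. At E13 the tooth of embryo 5 was the lowest in 5 of the 8 endothelial genes (sum 254.8 CPM), and that of embryo 3 the highest in 3 (sum 328.2 CPM). Left and right teeth of one embryo were present in 3 cases. In embryo 6 at E14 they had 71.9 and 55.2 CPM of Pecam1 and 29.4 and 18.9 CPM of Emcn, a difference as wide as that between many embryos, and in embryo 8 at E16 71.8 and 72.6 CPM of Pecam1 and 40.4 and 29.7 CPM of Tie1.

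**Figure D4:**
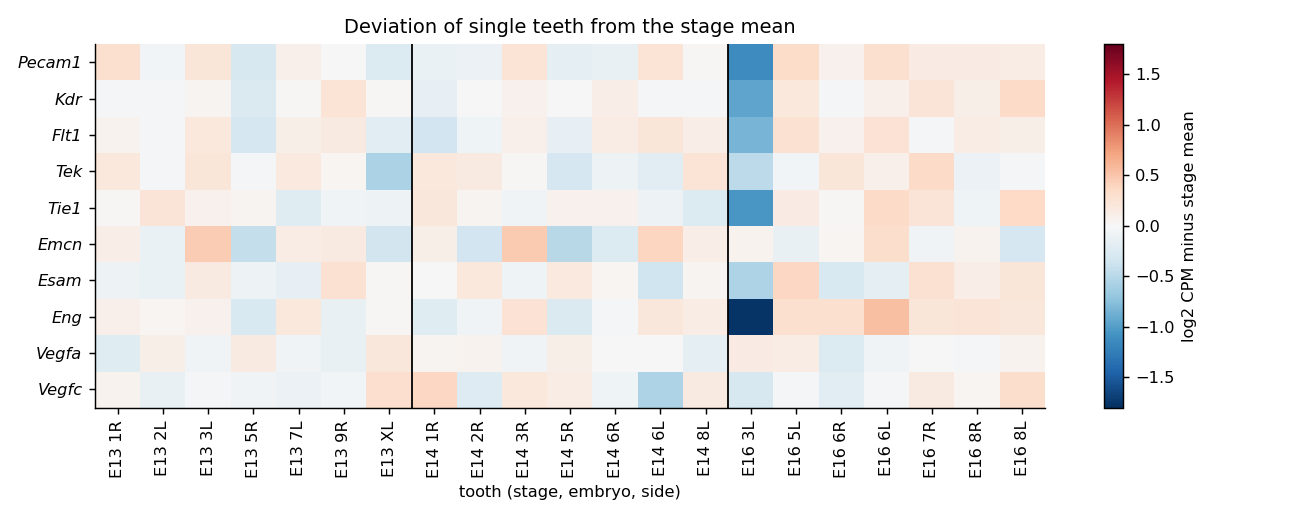
Difference of log2 CPM of each member in each tooth from the mean of its stage, with teeth labelled by stage, embryo number, and side (R or L), and X for the tooth with no embryo number. The left tooth of embryo 3 at E16 is low in 7 endothelial genes and near the mean for Emcn. Its mean deviation over the 8 endothelial genes is -0.83, and those of the other teeth lie between -0.21 and 0.22.

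The tendency of members to deviate together from the stage mean is described by correlations of log2 CPM centred within stages, without a test, because the values share libraries and scaling. Over the 28 pairs of endothelial members, the median r was 0.47 in 21 teeth and 0.12 in the 20 teeth without the left tooth of embryo 3 at E16. Much of the common variation is therefore that of 1 library. Pecam1 and Flt1 had an r of 0.74 in the 20 teeth. Vegfa had a median r of -0.45 with the 8 endothelial members in the 20 teeth, with negative values for 6 of them, the lowest for Emcn and Tek (-0.62 each).

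Outside the members, the 10 genes most correlated with the mean deviation of the 8 endothelial members in 21 teeth were Antxr1, Kdelr1, Ilk, Plvap, Neo1, Nid2, Elovl5, Msn, Grn, and Olfml2a, with r from 0.95 to 0.97. In the 20 teeth, they were Sorcs1, Antxr1, Mpv17l, Svip, Il2rg, Slc9a9, Kdelr1, Ptprm, Cpeb4, and Vsir, with r from 0.77 to 0.86, and 18 of the first 100 genes were shared between both rankings of 19091 genes. Of the 22 other endothelial genes, Erg, Plvap, and Clec14a were among the first 100 in the 20 teeth, and the median r of this list was 0.46, against 0.02 for all genes. Medians were 0.37 for 9 macrophage genes and for 4 skeletal muscle genes, 0.22 for 3 cartilage genes, 0.18 for 9 mural cell genes, and -0.43 for 4 dental epithelium genes. The other vessel lists were lower than the endothelial list, with 0.21 for 13 genes of VEGF, angiopoietin, and apelin signaling, -0.05 for 5 arterial genes, and -0.16 for 2 lymphatic genes. The 13 hypoxia-inducible genes had -0.09.

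For Vegfa, the genes with the most similar deviations in the 20 teeth were Pfkl, Poll, Rgs11, Tcp11, Gm7862, Gramd1a, Tmc6, Dffa, Spry2, and Frem2, with r from 0.82 to 0.87. In 21 teeth they were Rgs11, Gramd1a, Gm48740, Rprd1a, Tcp11, Gm23222, Ulk4, Pkn3, Gm27786, and Papln, with r from 0.76 to 0.85. Rgs11, Tcp11, and Gramd1a were thus in both lists.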

How the data were processed

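RNAseq libraries of single molar tooth germs were analyzed. The authors removed bad reads (FastQC, AfterQC, Trimmomatic) and used STAR for alignment to GRCm38 with Ensembl release 90. The deposited counts are from HTSeq, in whole numbers without normalization. The deposited estimated counts of a second table were made by the authors with salmon for 14185 genes, and its settings are not given in the sources used here. Gene names, coordinates, and exon lengths came from an annotation of GRCm38, and promoters from RefSeq.

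Stages were compared with the quasi-likelihood test of edgeR (4.0.16, R 4.3.3) on the HTSeq counts of 21 libraries in one fit, with TMM, filterByExpr, and Benjamini-Hochberg adjustment over 19101 genes. DESeq2 (1.42.0) was an alternative. The ratios to Pecam1 and their exact permutation test were computed with numpy 2.4.6. Both tests were tested on simulated data. The members and gene lists were chosen with earlier results of these data known. From each list, up to 3 genes with the lowest adjusted p in each direction were named, and Plvap, Flt4, Angpt1, Erg, and Clec14a after their values were seen. TPM were taken over protein-coding genes, which held between 16.1% and 73.7% of TPM over all genes, a choice made after seeing the data, as were all fits without the left tooth of embryo 3 at E16 beyond the members' own, the salmon means without it, and the fit of Hbb-bs without 1 tooth. The column of 1 E13 tooth carries no embryo number and was used by its stage alone. Replicate libraries differed by more than sampling noise. One gene of the dental epithelium list is not reported here and was left out of that list.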

Additional observations from a re-analysis of the deposited data

Results flagged for a closer look

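Of 30 groups of 7 teeth (10 genes at 3 stages), 7 had a tooth that stood apart from the others by Dixon's criterion at the 95% level, and chance gives about 1 in 20 groups. In 5 of these the tooth was the left one of embryo 3 at E16, which was the lowest, with 29.8 CPM of Pecam1 (others 69.1 to 81.8), 43.9 CPM of Kdr (others 83.3 to 108.2), 30.6 CPM of Flt1 (others 53.7 to 65.7), 15.2 CPM of Tie1 (others 29.7 to 40.4), and 19.9 CPM of Eng (others 77.9 to 97.9). The remaining 2 were in the E13 tooth with no embryo number, which had the lowest Tek, 13.4 CPM (others 19.4 to 23.2), and the highest Vegfc, 17.95 CPM (others 13.3 to 15.2). The groups are not independent, because the genes were measured in the same teeth.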

How the results depend on the processing

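The directions of all called members were kept under every alternative run, and the decrease of Vegfc kept its call throughout (log2 fold changes from -1.18 to -0.81 in the comparisons with E13). With the embryo number as a replicate block, the count of members higher was 0 between E13 and E14 and 2 (Emcn and Vegfa) between E13 and E16. Among all 19101 genes, 1093 and 2830 were higher in these comparisons. The embryo numbers name different embryos at each stage, teeth of the same number had correlations between -0.09 and 0.20 (15 pairs), and they do not pair the samples. With the salmon counts, 3 members were higher at E16 than at E13 (Flt1, Emcn, and Eng), beside 2915 of 13447 genes tested. Pecam1, not listed there, could not be counted, nor could ratios to it. With each tooth left out in turn, members higher numbered 1 to 3 between E13 and E14, 0 to 3 between E14 and E16, and 4 to 6 between E13 and E16, and ratios to Pecam1 past the threshold 2 to 6, 0 to 1, and 2 to 8. The 3 and 8 came without the left tooth of embryo 3 at E16. In the same fits, 1821 to 3207, 2755 to 3565, and 3948 to 4914 genes were called higher, of 19238 to 19334 tested. Without the E13 tooth of embryo 1, 6 ratios passed between E13 and E14 (Kdr, Flt1, Tie1, Esam, Eng, and Vegfc) and 4 between E13 and E16 (Kdr, Tie1, Esam, and Vegfc), and without the right E14 tooth of embryo 6, 4 passed between E13 and E14. The ratio of Eng passed between E14 and E16 without the E13 tooth of embryo 1 or without either tooth of embryo 6 at E16. Vegfa lost its call between E13 and E16 with no filter (adjusted p = 0.0874), only 2 stages in the fit (0.0662), side as a factor (0.05003), and salmon (0.0578), and Pecam1 gained one between E13 and E14 with only 2 stages in the fit (0.00484). The causes were not tested. The parts of sequencing depth and of the spread between teeth in the precision were not tested.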
